A study of Rattus norvegicus with 6 samples.

Results

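A set of 10 genes of triglyceride storage and breakdown were followed in the right ventricle (RV) of healthy rats and of rats with pulmonary hypertension: the lipid droplet coat genes Plin1, Plin2, Plin4 and Plin5, the lipase genes Pnpla2, Pnpla3, Lipe and Mgll, the lipase inhibitor gene G0s2 and the glycerol channel gene Aqp7. Of these 10 genes, 9 were measured among the 12958 named genes of the matrix, and Plin1 was not analysed here. Pnpla3 and Aqp7 were chosen by their change in this same comparison, so their values are given as a description with no test. The other 7 measured genes were put on the list for their function, with earlier results of these data known.

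Bulk RNA sequencing had been run on RV tissue of adult male Sprague-Dawley rats. The 3 control libraries came from healthy rats at day 0, for which no treatment is given. The 3 SuHx libraries came from rats labelled as having a decompensated RV at week 8 of the Sugen hypoxia model, in which SU5416, a blocker of vascular endothelial growth factor receptors, is injected before a period of hypoxia that is followed by normoxia. The samples analysed here hold no control of week 8, so SU5416, hypoxia, pressure load, age and time on study cannot be told apart. The labels number the control libraries and do not tie the SuHx columns to numbered rats, so the SuHx libraries are called A, B and C. Separate animals are not stated for the libraries, and the p-values measure the spread between them. In whole RV tissue, fewer cells of a type and less RNA per cell cannot be told apart.

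Heart muscle burns mostly fatty acids, and part of its supply passes through droplets of triglyceride in the cardiomyocyte. Perilipins coat the droplet and control access of lipases to its surface. The fatty acids are then removed step by step: adipose triglyceride lipase (Pnpla2) takes the first, hormone-sensitive lipase (Lipe) acts on diglyceride and monoglyceride lipase (Mgll) takes the last, which leaves glycerol. The aquaglyceroporin made from Aqp7 lets glycerol cross the membrane.

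The values are normalised counts, gene counts that had been scaled between libraries. By the study's methods, rat reads had been assigned to a mouse transcript index. Their totals ran from 11607609 to 12393415 in the controls and from 12754296 to 18249330 in SuHx, highest in SuHx B, where mitochondrial transcripts took 67.5% of the total against 52.0 to 58.0% in the other 5 libraries. The study's methods give a single depth in reads for all samples, and the depth of each library is not known. Ventricular cardiomyocyte markers were abundant, with 9 of 10 measured and summed levels of 649454 to 756423 in the controls and 452631 to 499132 in SuHx (exact two-sided permutation p = 0.10, the smallest that 3 against 3 can give). The groups did not overlap for 4 of these 9 markers, beside 24.6% of all tested genes. SuHx was lower for 3 (Myh6, Tnni3 and Ckm) and higher for 1 (Ryr2). The leading marker, Myh6, the alpha myosin heavy chain, lay at 376706, 386592 and 320910.0 for controls 1 to 3 compared with 141675, 131261 and 173603 for SuHx. Most of the lower sum in SuHx is thus Myh6. Mb, myoglobin, overlapped, as did Tnnt2, Actn2, Myl2 and Myl3. Libraries of 1 group also stood apart. Control 1 held 36639 normalised counts of the atrial peptide gene Nppa and 9629 of the atrial light chain gene Myl4, named after its values were seen, against 57.3 or less of either in controls 2 and 3. SuHx held 15462 to 17508 of Nppa and at most 58.1 of Myl4. Bmp10 (2363 in control 1), Myl7 (1353), Mybphl (1028) and Sln (560.4), named after their values were seen, were at 7.17 or less elsewhere. Dkk3, another gene of the atrial list, overlapped between the groups. The summed atrial markers were at 56555, 3315 and 1582 in controls 1 to 3 and 17440.3 to 19874 in SuHx (exact two-sided permutation p = 0.40). Control 3 had the highest summed immediate early genes, 21586 against 1515 to 3944 elsewhere, and the highest summed endothelial markers, 15797 against 7188 to 9483. Summed fibroblast markers (20095 to 32924 for control, 26632 to 27569 for SuHx), macrophage markers (768 to 1280.0, 834 to 2318) and erythroid markers (6590.3 to 21887, 12017 to 25634) overlapped between the groups. The macrophage sum was 834 in SuHx A, inside the control range, while SuHx B and C, at 2318 and 2307, lay above every control.

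Promoters of 4 members are shown because they form pairs within a family whose values were placed differently against the controls. In the perilipins Plin5 lay lower in SuHx while Plin4 overlapped. In the patatin-like lipases Pnpla3, chosen by its change, lay lower while Pnpla2 lay higher. The Pnpla2 difference of 0.26 had an adjusted p of 0.43 by limma and was -0.058 with libraries rescaled to equal totals. Whether the members of either pair differed in their change was not tested. Each runs from 250 bases before to 50 bases after the annotated start, 5′ to 3′ on the strand of the gene, from RefSeq on the rat build GRCr8. Capitals mark motifs, each read on both strands. The letters searched were GGGCGG for the GC box and CACGTG for the E-box. The CCAAT box and the TATA motif, searched as TATAA, were read as well. The nuclear receptor half-site was searched as AGGTCA. Plin5 is from chr9:1033235-1033534, minus strand, Plin4 from chr9:1025200-1025499, minus strand, Pnpla3 from chr7:117173278-117173577, plus strand, and Pnpla2 from chr1:205982029-205982328, plus strand.
Plin5: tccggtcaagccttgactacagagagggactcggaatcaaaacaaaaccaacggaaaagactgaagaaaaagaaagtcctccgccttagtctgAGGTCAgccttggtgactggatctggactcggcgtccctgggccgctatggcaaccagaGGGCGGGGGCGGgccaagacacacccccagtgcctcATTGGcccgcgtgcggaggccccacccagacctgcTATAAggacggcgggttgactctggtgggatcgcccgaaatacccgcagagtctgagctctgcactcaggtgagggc
Plin4: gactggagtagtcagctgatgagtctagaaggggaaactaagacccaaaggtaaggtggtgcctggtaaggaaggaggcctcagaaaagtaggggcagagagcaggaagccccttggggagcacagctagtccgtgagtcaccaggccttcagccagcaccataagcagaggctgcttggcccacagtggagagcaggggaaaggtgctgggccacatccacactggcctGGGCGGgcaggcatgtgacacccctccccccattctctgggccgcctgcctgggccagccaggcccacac
Pnpla3: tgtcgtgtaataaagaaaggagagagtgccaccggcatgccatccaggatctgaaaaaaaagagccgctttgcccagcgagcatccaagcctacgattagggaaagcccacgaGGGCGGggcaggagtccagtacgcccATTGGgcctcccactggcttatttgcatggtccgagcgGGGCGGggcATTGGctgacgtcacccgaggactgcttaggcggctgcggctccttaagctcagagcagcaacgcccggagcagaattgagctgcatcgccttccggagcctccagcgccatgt
Pnpla2: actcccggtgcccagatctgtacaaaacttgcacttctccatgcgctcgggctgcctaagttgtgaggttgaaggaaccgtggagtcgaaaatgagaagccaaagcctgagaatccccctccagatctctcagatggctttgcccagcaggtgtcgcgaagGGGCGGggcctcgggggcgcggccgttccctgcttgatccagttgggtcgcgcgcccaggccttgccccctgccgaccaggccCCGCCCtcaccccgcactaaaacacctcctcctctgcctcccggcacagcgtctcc

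Of the 9 measured members, 7 had a promoter in the table. Plin4 had 5 entries and Plin2 had 2, and the first entry of each gene was read. All 7 first entries held a GC box, which 33.1% of 33469 rat promoter entries of this length hold. The Plin5 window held a half-site, 2 GC boxes that adjoin each other, a CCAAT box and a TATA motif, and the first Plin4 window held a GC box alone. Of the 5 Plin4 entries, which overlap in part, 4 held a GC box and 1 a TATA motif, and 0 held a half-site or a CCAAT box. The second Plin2 entry held a CCAAT box and neither a GC box nor an E-box. The Pnpla3 window held 2 GC boxes and 2 CCAAT boxes, and the Pnpla2 window held 2 GC boxes. A half-site was in the Plin5 and G0s2 windows and in 16.2% of all promoters. A CCAAT box was in the Plin5, Pnpla3 and Mgll windows (37.5% of all), a TATA motif in Plin5 and G0s2 (26.2%) and an E-box in Plin2 and Mgll (6.42%). The direct repeat of the half-site with 1 base between is the arrangement that peroxisome proliferator-activated receptors (PPARs) bind. It was in none of the 7 windows, nor in the other Plin2 and Plin4 entries, and in 0.0538% of all promoters. Only exact letters in these windows were searched, and so few promoters held the repeat that its absence tells nothing about PPAR binding. The windows were 60.0 to 72.3% G and C, above the median of 51.7% for all promoters. Plin4 and Plin5 lie next to each other on chromosome 9 with 0 genes between them and do not overlap.

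Across the 7 genes listed for their function, Plin5, Mgll and Lipe lay lower in every SuHx library than in every control, Pnpla2 lay higher in every SuHx library, and Plin2, Plin4 and G0s2 overlapped. None of the 7 was called by limma at an adjusted p under 0.05, and 2 of them, Plin5 and Mgll, had an unadjusted p under 0.05, a level that 17.2% of all genes passed. The fit called 2.22% of the 10725 tested genes, 1.55% higher and 0.671% lower in SuHx. The groups did not overlap for 24.6% of tested genes, with SuHx above for 12.9% and below for 11.6%. The median difference of the 7 genes was -0.30 on the log2 scale beside 0.010 for all genes. With libraries rescaled to equal totals, which moved the median of all genes to -0.31, 90 genes of the whole table were called higher and 191 lower, against 166 and 72, and Plin5 alone of the 7 was called lower (-1.17, adjusted p = 0.034 by limma).

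**Figure D1:**
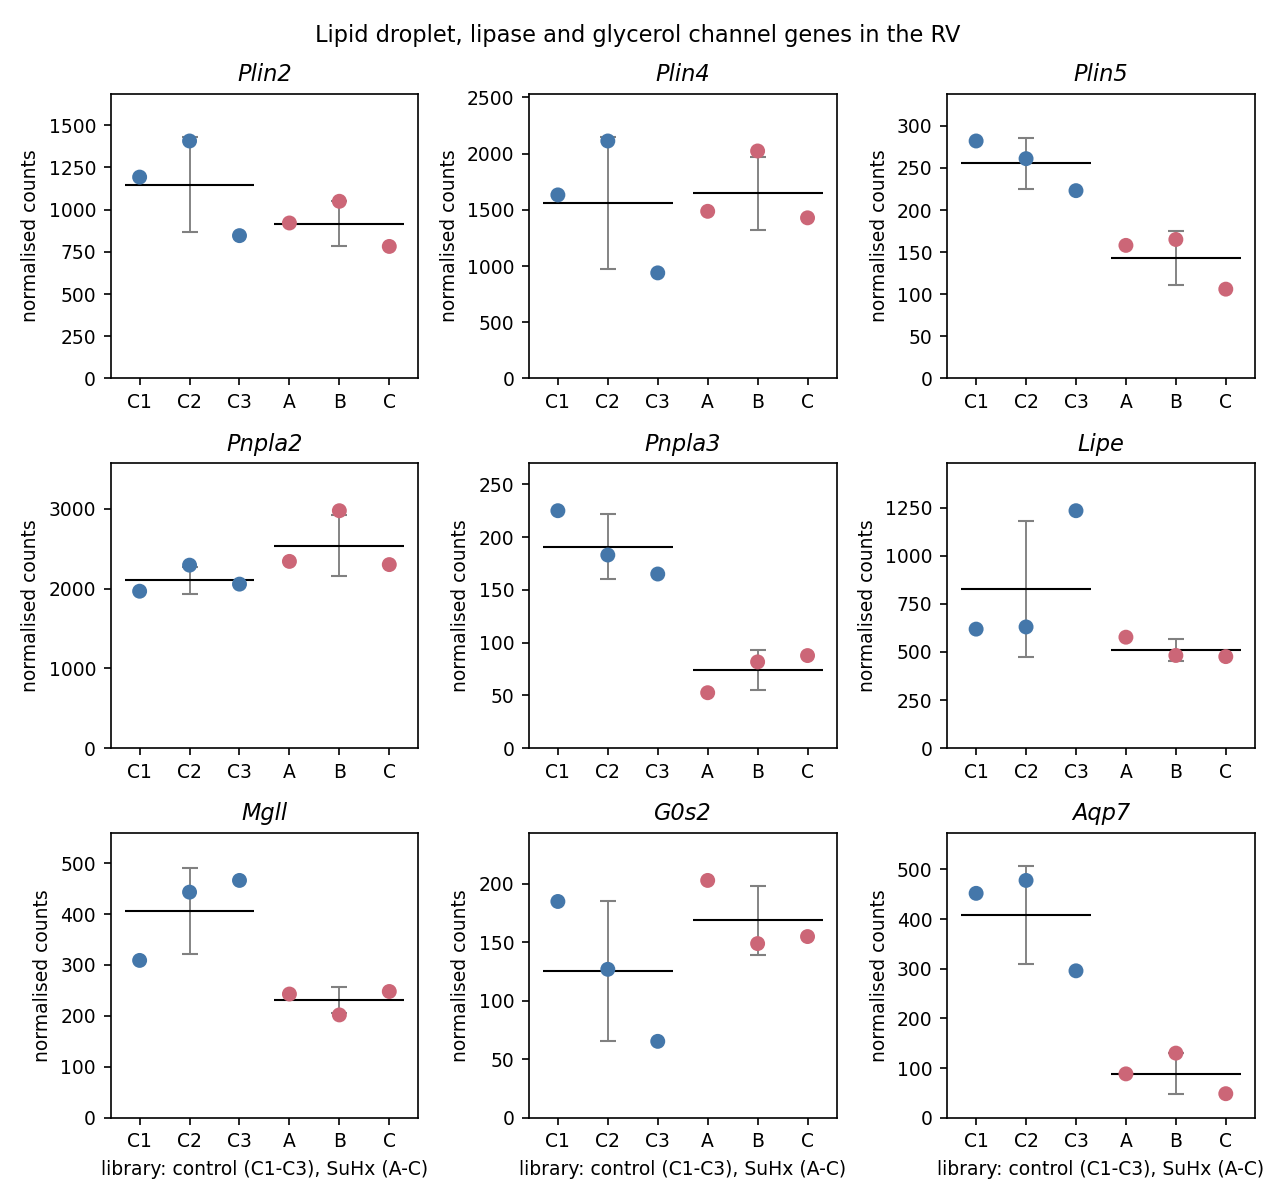
Normalised counts (vertical axes, from 0) of the 9 measured genes in the control libraries C1 to C3 (blue) and the SuHx libraries A to C (red), with the group mean as a line and the SD as a bar. SuHx points lie below all controls for Plin5, Pnpla3, Lipe, Mgll and Aqp7 and above all controls for Pnpla2.

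Plin5 encodes the perilipin of oxidative tissues such as heart, which coats droplets and holds them close to mitochondria. Controls 1 to 3 held 282, 261 and 223 normalised counts of Plin5, whereas A, B and C of the SuHx group held 158, 165 and 106. The highest SuHx library thus lay under the lowest control, and library C was the lowest of the 6. The group means were 256 ± 30.2 and 143 ± 32.4 (SD, n = 3 each), 1.79-fold lower in SuHx. The log2 difference was -0.85 (SE 0.21, 95% interval -1.35 to -0.35), with an adjusted p of 0.099 by limma. Across the alternative settings, that adjusted p ranged from 0.034 to 0.30.

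Plin2 encodes the perilipin found on droplets of most cell types, whose protein is stabilised by stored lipid. Its 3 controls had 1193, 1407 and 846 normalised counts and SuHx A to C had 921, 1049.6 and 782. Control 3 fell inside the SuHx range. The difference of -0.30 (SE 0.22, 95% interval -0.81 to 0.20) had an adjusted p of 0.52 by limma, and the interval still holds a fall of more than 0.8 and a small rise on the log2 scale.

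Plin4 encodes a perilipin that coats small nascent droplets in adipocytes. Healthy RV gave 1633, 2113 and 939 normalised counts of Plin4 and SuHx RV gave 1487, 2024 and 1429. The controls spread further than SuHx and enclosed the SuHx values, with control 3 lowest and control 2 highest. The difference was 0.14 (SE 0.30, 95% interval -0.57 to 0.84, adjusted p = 0.85 by limma), and its sign turned to -0.19 without control 3 and to -0.022 without SuHx B.

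The first lipase of the pathway, Pnpla2, measured 1968, 2295 and 2057 normalised counts across healthy RV, compared with 2342, 2978 and 2302 across SuHx RV. SuHx libraries A and C exceeded control 2 by little, and library B stood above the other 5. Means were 2107 ± 169 and 2540.4 ± 379, a ratio of 1.21, with a log2 difference of 0.26 (SE 0.15, 95% interval -0.10 to 0.62, adjusted p = 0.43 by limma). Rescaled to equal totals, the difference was -0.058.

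Pnpla3 encodes a patatin-like relative of Pnpla2 that is found on droplets and is best known for a human coding variant linked to fatty liver. Healthy libraries contained 225, 183 and 165 normalised counts, and SuHx libraries contained 52.5, 81.7 and 87.7. Every SuHx value was far under the lowest control, and SuHx A was lowest. Means of 191 ± 30.6 and 74.0 ± 18.8 differed 2.58-fold, -1.38 on the log2 scale (SE 0.24), and the difference stayed between -1.52 and -1.15 when any 1 library was left out. As the gene was chosen for this difference, no test is given.

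Lipe, the hormone-sensitive lipase gene, gave 619, 630.3 and 1235 normalised counts for controls 1 to 3, compared with 577, 482 and 476 for SuHx. The groups did not overlap, but control 3 stood far above the other 5 libraries, and controls 1 and 2 lay close to SuHx A. Means were 828 ± 353 and 512 ± 56.6, with a difference of -0.62 (SE 0.28, 95% interval -1.27 to 0.028, adjusted p = 0.31 by limma). Without control 3 the difference was -0.29, less than its full value by more than 1.5 times.

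Mgll encodes the lipase that releases the last fatty acid and also breaks down the endocannabinoid 2-arachidonoylglycerol. Its controls were at 309, 443 and 466 normalised counts and its SuHx libraries at 243, 202 and 248. All 3 SuHx libraries lay in a narrow band under control 1, the lowest control. Means were 406 ± 84.6 and 231 ± 25.3, 1.76-fold lower in SuHx, with a difference of -0.79 (SE 0.20, 95% interval -1.26 to -0.33, adjusted p = 0.098 by limma, 0.063 to 0.29 across the alternative settings).

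G0s2, whose protein binds and inhibits the Pnpla2 lipase, reached 185, 127 and 65.4 normalised counts across healthy RV and 203, 149 and 155 across SuHx RV. Only SuHx A exceeded all controls, and the control values spanned a wider range than the SuHx values. The difference of 0.53 (SE 0.36, 95% interval -0.32 to 1.38) had an adjusted p of 0.50 by limma. It was 0.13 without control 3 and 0.87 without control 1.

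Aqp7, the glycerol channel gene, had the widest separation of the 9. Healthy RV contained 452, 478 and 296 normalised counts, whereas the SuHx libraries contained 88.5, 130.3 and 48.6. The highest SuHx library was below the lowest control, and SuHx C was lowest. Means were 409 ± 98.4 and 89.1 ± 40.8, 4.59-fold lower in SuHx, which is -2.26 on the log2 scale (SE 0.37). Leaving out any 1 library kept the difference between -2.59 and -1.89. Aqp7 too was chosen for this change and carries no test.

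**Figure D2:**
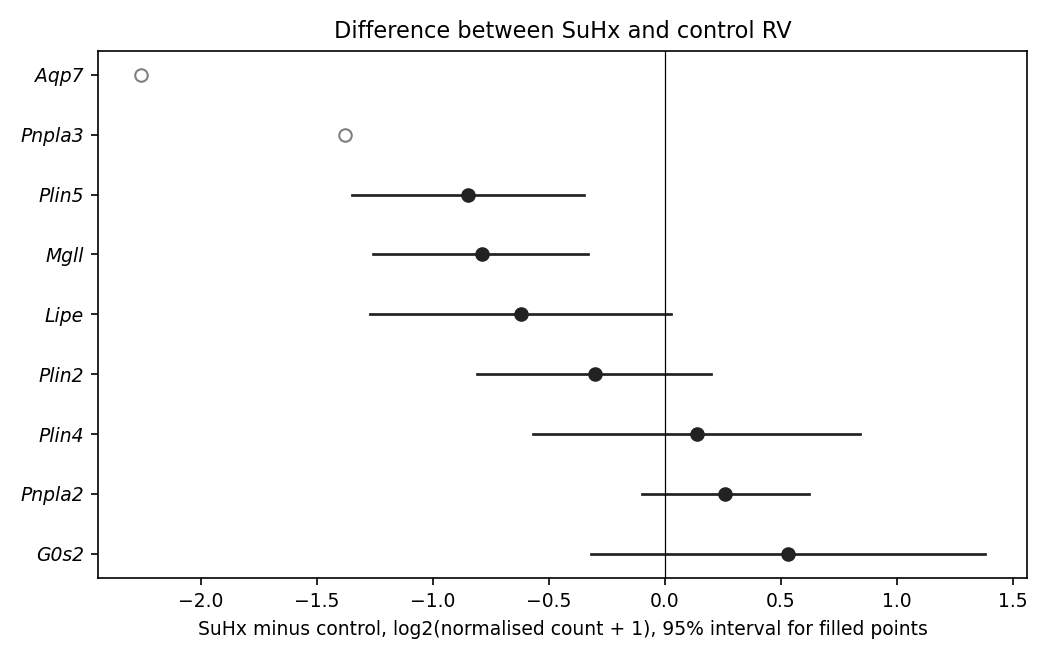
Log2 difference of SuHx minus control for each gene (horizontal axis, log2 of normalised count plus 1), with points at the estimate. Filled points are genes listed for function, with lines over the 95% interval, and open points without an interval, Aqp7 (-2.26) and Pnpla3 (-1.38), were chosen by this comparison.

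Within each library, genes were also set against each other, as a description with no test. Plin5 was 14.3, 11.4 and 10.8% of the Pnpla2 value in the controls and 6.74, 5.55 and 4.60% in SuHx. Plin5 over Plin2 was 18.6 to 26.3% in the controls and 13.5 to 17.2% in SuHx. Mgll over Pnpla2 was 15.7 to 22.7% against 6.78 to 10.8%, and Pnpla3 over Pnpla2 was 7.99 to 11.4% against 2.24 to 3.81%. Lipe over Pnpla2 was 27.5 to 60.1% against 16.2 to 24.6%. Pnpla2 lay higher in every SuHx library and Plin5, Mgll, Pnpla3 and Lipe lay lower. Their ratios to Pnpla2 therefore had to separate the groups and add nothing to the values of the single genes. The inhibitor against its enzyme, G0s2 over Pnpla2, overlapped, at 3.18 to 9.41% in the controls and 5.01 to 8.66% in SuHx. These shares are of normalised counts that are not divided by gene length, so only their change between libraries can be read.

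Control 3 differed from the other 2 controls for several members. It was lower by 1.22 log2 units for G0s2, by 0.98 for Plin4, by 0.65 for Aqp7 and by 0.62 for Plin2, and higher by 0.98 for Lipe. Control 1 was higher by 1.01 for G0s2 and lower by 0.55 for Mgll. The median signed deviation of all genes in the control libraries was between -0.0037 and 0.027, which the scaling holds near 0 whatever the spread of single genes. The median SD of log2 values among controls was 0.31 over all genes. It was 0.75 for G0s2, 0.60 for Plin4 and 0.57 for Lipe. For Plin2, Aqp7 and Mgll it was 0.37, 0.38 and 0.32, and for Plin5, Pnpla3 and Pnpla2 it was 0.17, 0.23 and 0.11. The SD of log2 values was larger in the controls than in SuHx for 5 of the 9 members, beside 66.1% of all genes.

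**Figure D3:**
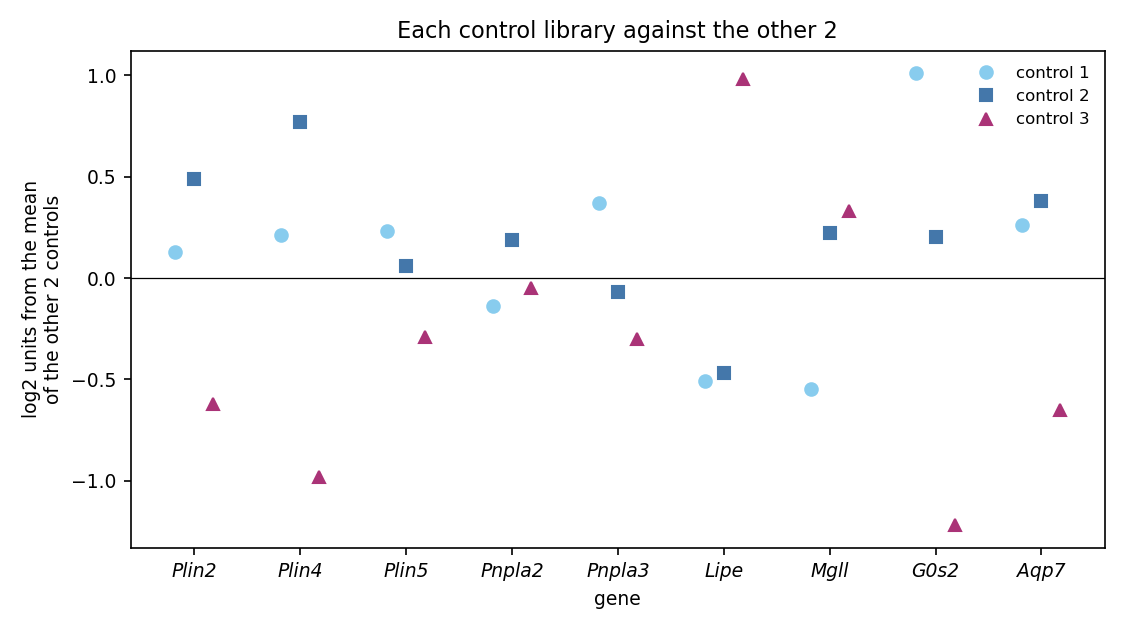
Deviation of each control library from the mean of the other 2 controls (vertical axis, log2 units) for the 9 genes, with circles for control 1, squares for control 2 and triangles for control 3. Control 3 lies at -1.22 for G0s2, -0.98 for Plin4 and 0.98 for Lipe.

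Adipocytes also carry these genes, so their markers were read in the same libraries. Of 16 markers, 8 were measured, and none separated the groups. For adiponectin (Adipoq), control 1 held 42.6 normalised counts, controls 2 and 3 were listed at 0, and SuHx held 1.55, 0 and 0.955. Cfd measured 63.4, 20.8 and 45.1 across healthy RV and between 14.7 and 23.8 across SuHx RV. Car3 was at 275 in control 1 and at 1.72 or less elsewhere, Pck1 at 19.1 in control 1 and at 6.26 or less elsewhere, and Cidec and Thrsp at 12.3 and 10.1 in control 1 and at 1.99 or less elsewhere. Cidea measured 354, 184 and 299 against 259.9, 219 and 160.2 for SuHx. Fabp4, which capillary endothelium also expresses, measured 2807, 4017 and 8785 against 2602 to 3007 for SuHx.

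Summed over the 8 markers, the level was 3583, 4229 and 9132 in the controls and 2854 to 3196 in SuHx (exact two-sided permutation p = 0.10), and without Fabp4 and Cidea it was 423, 27.1 and 48.1 against 20.3 to 28.6 (exact p = 0.20). The part of adipocyte RNA in the members' differences was not tested. Control 3 combined the highest Lipe, Fabp4 and endothelial levels of the 6 libraries, and the part of its endothelial and immediate early RNA in the Lipe value was not tested. Long transcripts against ribosomal protein genes, a sign of RNA quality, were at -0.30, -0.082 and -0.78 log2 units in the controls and 0.071, 0.17 and 0.56 in SuHx (exact two-sided permutation p = 0.10). Their part in the members' differences was not tested.

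The wider pathway was read from lists of 77 listed genes, of which 52 were tested. The fit called 0 of them higher and 1 lower, with 2 and 12 at an unadjusted p under 0.05, beside 17.2% of all tested genes in either direction. Their median difference was -0.26, beside 0.010 for all genes. SuHx lay above all controls for 3 and below for 13, beside 12.9% and 11.6% of all tested genes. All these lists were chosen with earlier results of these data known, so the shares and medians here and below are a description.

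The called gene was Ehhadh, a peroxisomal beta-oxidation enzyme and a PPAR target. Healthy RV held 92.0, 77.1 and 73.5 normalised counts while SuHx RV held 24.0, 26.7 and 25.7, a difference of -1.62 (SE 0.21, adjusted p = 0.016 by limma). All SuHx libraries lay close together, far under the controls. The call was lost when control 1, control 2, SuHx A, SuHx B or SuHx C was left out, with adjusted p by limma between 0.058 and 0.091 and a difference between -1.66 and -1.53. Of the 10 tested PPAR-responsive genes, 5 had SuHx below all controls, beside 11.6% of all tested genes. The list's median was -0.72. This list too was chosen with earlier results of these data known, so its share is a description and no test.

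No tested gene of the other 4 lists was called. Among 12 other droplet proteins the median was -0.30. Fitm2, which helps droplets form at the endoplasmic reticulum, measured 1783, 1677 and 995 for healthy RV and 766, 1191 and 733 for SuHx RV (-0.72, SE 0.28, adjusted p = 0.26 by limma), and Rab18, a droplet-bound small GTPase, differed by 0.19 (adjusted p = 0.66). Plin3, named after its values were seen, is the remaining perilipin of the list and went the other way from Plin5, with 158, 199 and 135 for healthy RV and 289.5, 241 and 292 for SuHx RV (0.75, adjusted p = 0.10 by limma). Among 12 triglyceride synthesis genes the median was -0.33, with SuHx below all controls for 3, beside the same 11.6%. The acyltransferase gene Agpat1 differed by -0.085 and the phosphatidate phosphatase gene Lpin1 by -0.40, with adjusted p of 0.80 and 0.71 by limma. Lpin1 in control 3 was at 331 against 1167 and 1173 in the other controls, and without that library its difference was larger and passed the threshold, with an adjusted p of 0.032 by limma.

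Among 14 other lipases and cofactors the median was -0.067. Lipoprotein lipase (Lpl), which frees fatty acids from circulating triglyceride at the capillary wall, measured 21128, 26754 and 17434 for healthy RV and 14834, 22347 and 17408 for SuHx RV (-0.26, adjusted p = 0.61 by limma), with overlap. Pnpla8, a phospholipase of the Pnpla family, differed by 0.17 (adjusted p = 0.75 by limma). Ces1d, a carboxylesterase named after its values were seen, measured 595, 239 and 305 for healthy RV and 23.2, 110.2 and 88.7 for SuHx RV (-2.50, adjusted p = 0.091 by limma). It belongs to a family of similar genes between which reads may be split. Abhd5, the activator of Pnpla2, belongs to the list of other droplet proteins and was also named after its values were seen. It measured 226, 246 and 206 for healthy RV and 263, 222 and 292 for SuHx RV, with overlap (0.19, adjusted p = 0.59 by limma). Of 8 listed genes of glycerol channels and metabolism, 4 were measured and tested, all of metabolism, so no glycerol channel besides Aqp7 was read. Their median was 0.10. Gk measured 57.3, 68.8 and 56.5 for healthy RV and 55.6, 10.3 and 52.4 for SuHx RV (-0.92, adjusted p = 0.48 by limma). SuHx thus lay below all controls, but A and C only just, with B far lower. For Gpd2, a gene of low counts, SuHx lay above all controls (1.69, adjusted p = 0.27 by limma). Gk and Gpd2 were named after their values were seen. Gpd1l, a glycerol-3-phosphate dehydrogenase-like enzyme, differed by -0.042, and Pgp, a phosphatase of glycerol 3-phosphate, by 0.24, with adjusted p of 0.96 and 0.49 by limma.

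**Figure D4:**
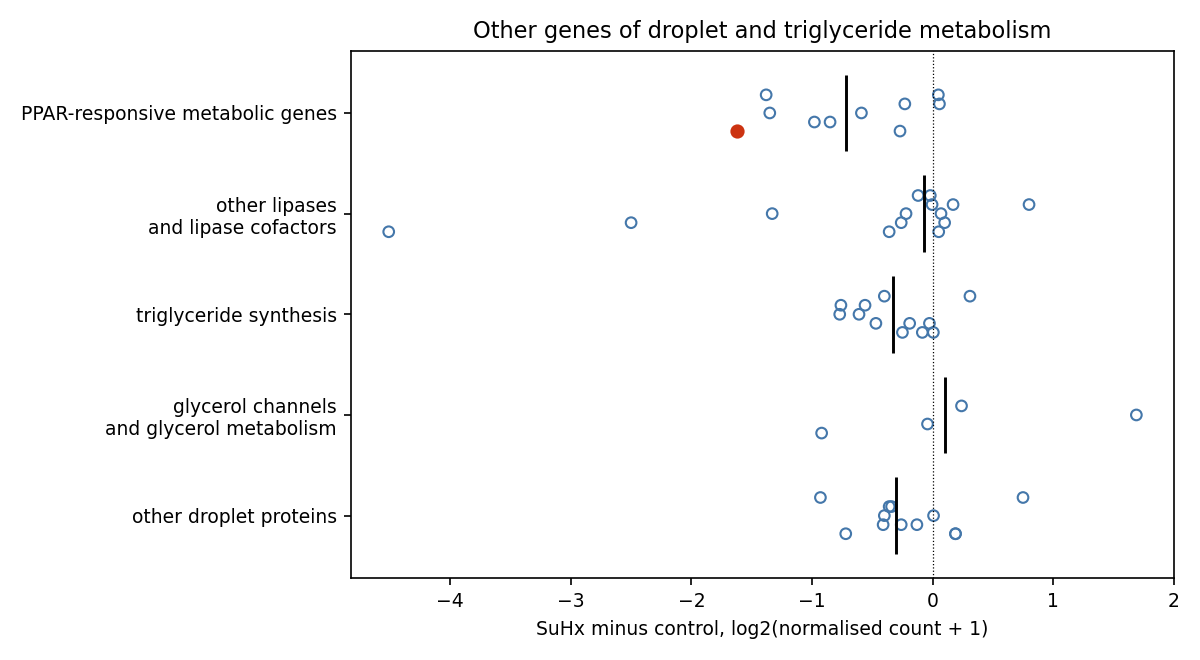
Log2 difference of SuHx minus control (horizontal axis, log2 of normalised count plus 1) for the tested genes of 5 lists, with 1 circle per gene and a vertical bar at each list's median. The filled red circle is Ehhadh at -1.62, the called gene.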

How the data were processed

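RNA was extracted from RV tissue with a spin-column kit and made into libraries with the TruSeq RNA kit. The authors quantified reads with Salmon 0.14.1 and normalised them with DESeq2 1.24.0. By the study's methods, the Salmon index was made from mouse sequence and annotation (GRCm38.p6), so rat reads were assigned to mouse transcripts. A gene whose rat and mouse sequences differ can lose reads in all libraries, and how many reads each member lost was not tested. The deposited values are therefore a signal per gene, scaled counts that are no longer whole. Reads could not be recovered (92.5 to 96.9% of values below 12 lay within 0.1 of a multiple of the step of their library), so no count model was fitted.

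A row without a gene name, 0.00143 to 0.00514% of each total, was left out. Of 12958 names, 11247 were current rat RefSeq symbols, as were all 9 members, and 753 were synonyms. Genes with a mean of at least 10 (10725) were tested on log2(value + 1) with limma 3.58.1 in R 4.3.3, with a mean-variance trend, SuHx against control, two-sided, with Benjamini-Hochberg adjustment over all tested genes and calls at an adjusted p under 0.05. Fold changes on this scale understate the change of low genes. Summed levels were compared with exact permutation tests. The test was checked on simulated data. Python 3.11.15 was used for tables and promoter searches.

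The members and the gene lists were chosen with earlier results of these data known. All members were named. From each list of other genes, up to 4 called genes were named or, with none called, the 2 of highest mean, and adipocyte markers were named one by one. Alternatives changed the pseudocount, the filter, the scaling, the moderation and the libraries included.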

Additional observations from a re-analysis of the deposited data

How the results depend on the processing

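The directions of Plin2, Plin5, Lipe, Mgll and G0s2 held under all 16 alternatives. Those of Pnpla3 and Aqp7 held as well, but both were chosen by this comparison, so this adds no support. No member listed for function was called except Plin5 with equal totals, where 1 was called lower (-1.17, adjusted p = 0.034 by limma). With equal totals, 90 genes of the whole table were called higher and 191 lower, 7 genes of the wider lists were lower, and the differences of Plin4, Pnpla2, Rab18, Pgp and Pnpla8 turned to -0.18, -0.058, -0.13, -0.082 and -0.15. This scaling moved the median of all genes to -0.31. With equal totals without mitochondrial transcripts 2 genes of the wider lists were lower. Without a trend, 83 genes were higher and 38 lower. Leaving out 1 library gave 13 (without SuHx C) to 239 (without control 3) genes higher and 7 to 115 lower for the same libraries, with 74, 29 and 32 higher without control 2, SuHx A and SuHx B, and 0 to 3 of the wider lists lower. Over these, Plin4 ranged from -0.19 to 0.39, Rab18 from -0.018 to 0.31, Gpd1l from -0.45 to 0.21, Agpat1 from -0.16 to 0.0023 and Pnpla8 from -0.085 to 0.29. Without controls 1 and 3, a setting chosen after seeing the data that leaves 1 control assumed to vary like the SuHx libraries, 65 genes were higher and 6 lower, 0 of the wider lists were lower, Plin4 was at -0.38 and Pnpla8 at -0.088. The cause of these shifts was not tested. No paired analysis was possible because the SuHx columns carry no replicate number. No matching of control with SuHx libraries is stated, so such a number alone would not pair them. With 3 libraries a group and the depth in reads of each library unknown, members with wide intervals (Plin4, G0s2, Lipe) could hide changes of moderate size.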
